A study of Mus musculus with 12 samples.

Results

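Signal was measured for 61 genes of the mouse proteasome and of ubiquitin conjugation, in hippocampus with and without an active form of the transcription factor CREB. The genes were taken by name: every gene with a probe set that carries 1 symbol starting with Psma, Psmb, Psmc, Psmd, Psme or Ube2, except Psmb8 and Psmb9. The 61 stand among 8251 genes that the array names by 1 symbol. The names covered 80 of the 12422 probe sets, and the brightest probe set stood for each gene. They gave 7 Psma, 8 Psmb, 7 Psmc, 14 Psmd, 4 Psme and 21 Ube2 genes. Of the 61, 54 passed a filter on dim probe sets (above the median of the array on at least 2 of the 12 arrays) and were tested. The other 7 were Psmc4 and Psmd2, which encode subunits of the regulatory particle, the conjugating enzymes Ube2e3, Ube2l6, Ube2t and Ube2w, and Psmc3ip. A name does not make a constitutive subunit: Psmc3ip and Psme3ip1 encode proteins outside the proteasome, and Psmb10, Psme1 and Ube2l6 are known to be induced by interferon. Psme2 was left out because its probe sets carry several symbols.

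The mice carried VP16-CREB (VC), a fusion of CREB with the activation domain of VP16 that is active without stimulation, under the control of doxycycline (dox), which keeps the transgene off. The study looked for genes induced along with easier late long-term potentiation. Each of 12 Affymetrix MG-U74Av2 arrays held polyA RNA from 1 pooled sample, with hippocampi of 6 to 10 animals per pool. The p-values therefore rest on differences between pools and do not measure the spread between mice. Microdissected CA1, a subfield of the hippocampus, came from VC mice 3 weeks after dox was withdrawn (2 arrays) and from wild-type mice kept under the same conditions (1 array). Whole hippocampus of VC mice was taken 1 week (2 arrays), 2 weeks (2) and 5 weeks (1) after withdrawal, and these 5 arrays are called induced. One further VC sample (1 array) expressed the transgene for 3 weeks and was then returned to dox for 2 weeks, and is called reversed; its description, unlike its title, names it wild type. Hippocampus never induced came from VC mice kept on dox (1 array) and wild-type mice (2 arrays). The labels give no strain, age or driver of the transgene.

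Values are log2 of the deposited intensity after scaling every array to a common 2% trimmed mean, 1000, with a floor of 6.03, and a log2 difference of 1 is a doubling of signal. Probe sets differ in affinity, so levels are compared between samples and not between genes. The Creb1 probe set read 8.31 to 9.63 in induced hippocampus, 7.10 in the reversed sample and 6.03 to 6.33 in never-induced hippocampus. It read 8.86 and 9.56 in VC CA1 against 6.03 in wild-type CA1. Samples labelled as off dox thus read above those never induced. The labels do not give the place of the reversed sample between them. Wild-type hippocampus array 1 and the 3 CA1 arrays were deposited on a scale near 500 and the other 8 near 3000, so region and deposited scale differ together except on that 1 array. VC CA1 array 2 stood apart: it correlated with the hippocampal arrays at 0.934 to 0.957, against 0.913 to 0.944 for VC CA1 array 1 and 0.921 to 0.942 for wild-type CA1 (over probe sets, as a description). Wfs1, a marker of CA1 pyramidal cells, read 11.44 and 12.02 in VC CA1 and 11.95 in wild-type CA1, against 10.90 to 11.63 in hippocampus, and the summed signal of 6 such markers was 10284 to 13198 in CA1 against 10615 to 16336 in hippocampus. Ttr, the defining gene of choroid plexus, read 6.32 to 7.94 in CA1 and 8.64 to 13.10 in hippocampus. The sum of 6 choroid plexus markers overlapped between the regions, at 5034 to 6584 in VC CA1 and 4892 in wild-type CA1. In hippocampus that sum was 6502 to 16193 in induced, 5007 in reversed and 5309 to 8100 in never-induced samples. The sum of 17 microglial markers was 18490 to 65764 in induced, 27989 in reversed and 17913 to 21461 in never-induced hippocampus, and 70605 to 76448 in VC CA1 against 27455 in wild-type CA1. In these bulk samples fewer cells of a type and less RNA per cell cannot be told apart, and the part of cell composition in the results below was not tested.

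The proteasome is the barrel-shaped protease that degrades proteins marked with ubiquitin. Its 20S core has outer alpha rings, which gate the barrel, and inner beta rings, which hold the catalytic sites of Psmb5, Psmb6 and Psmb7; the 19S particle on the ends recognises, deubiquitinates and unfolds substrates with its Psmc ATPases and Psmd subunits. Ubiquitin reaches a substrate through an activating enzyme (E1), a conjugating enzyme (E2, the Ube2 genes) and a ligase (E3). In neurons this system is known to take part in synaptic plasticity, and interferon replaces the catalytic subunits with Psmb8, Psmb9 and Psmb10 to form the immunoproteasome.

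Signal of the 54 tested genes was first compared between hippocampal pools. Over the 9 hippocampal arrays the SD of a gene ran from 0.08 to 0.48, with a median of 0.18 over the 54 genes. The median was 0.22 over all 7069 tested probe sets. Each of the 54 genes was taken by its brightest probe set, and the 7069 were not matched to them for brightness. The difference between these medians is therefore not read as a trait of the genes. VC 1-week array 2 read above the hippocampal mean for 46 of 54 genes, with a median deviation of 0.13, while over all tested probe sets its median deviation was -0.02. VC 1-week array 1, a pool of the same condition, read below the mean for 31 of 54, with a median of -0.09. The medians of the other 7 hippocampal arrays lay between -0.06 and 0.07, on both sides of 0 within the never-induced group. The shift of 1-week array 2 was seen in all 5 tested Psmc ATPases (median 0.30), in 6 of 7 alpha subunits (0.22) and in 14 of 16 ubiquitin E2 enzymes (0.16).

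**Figure D1:**
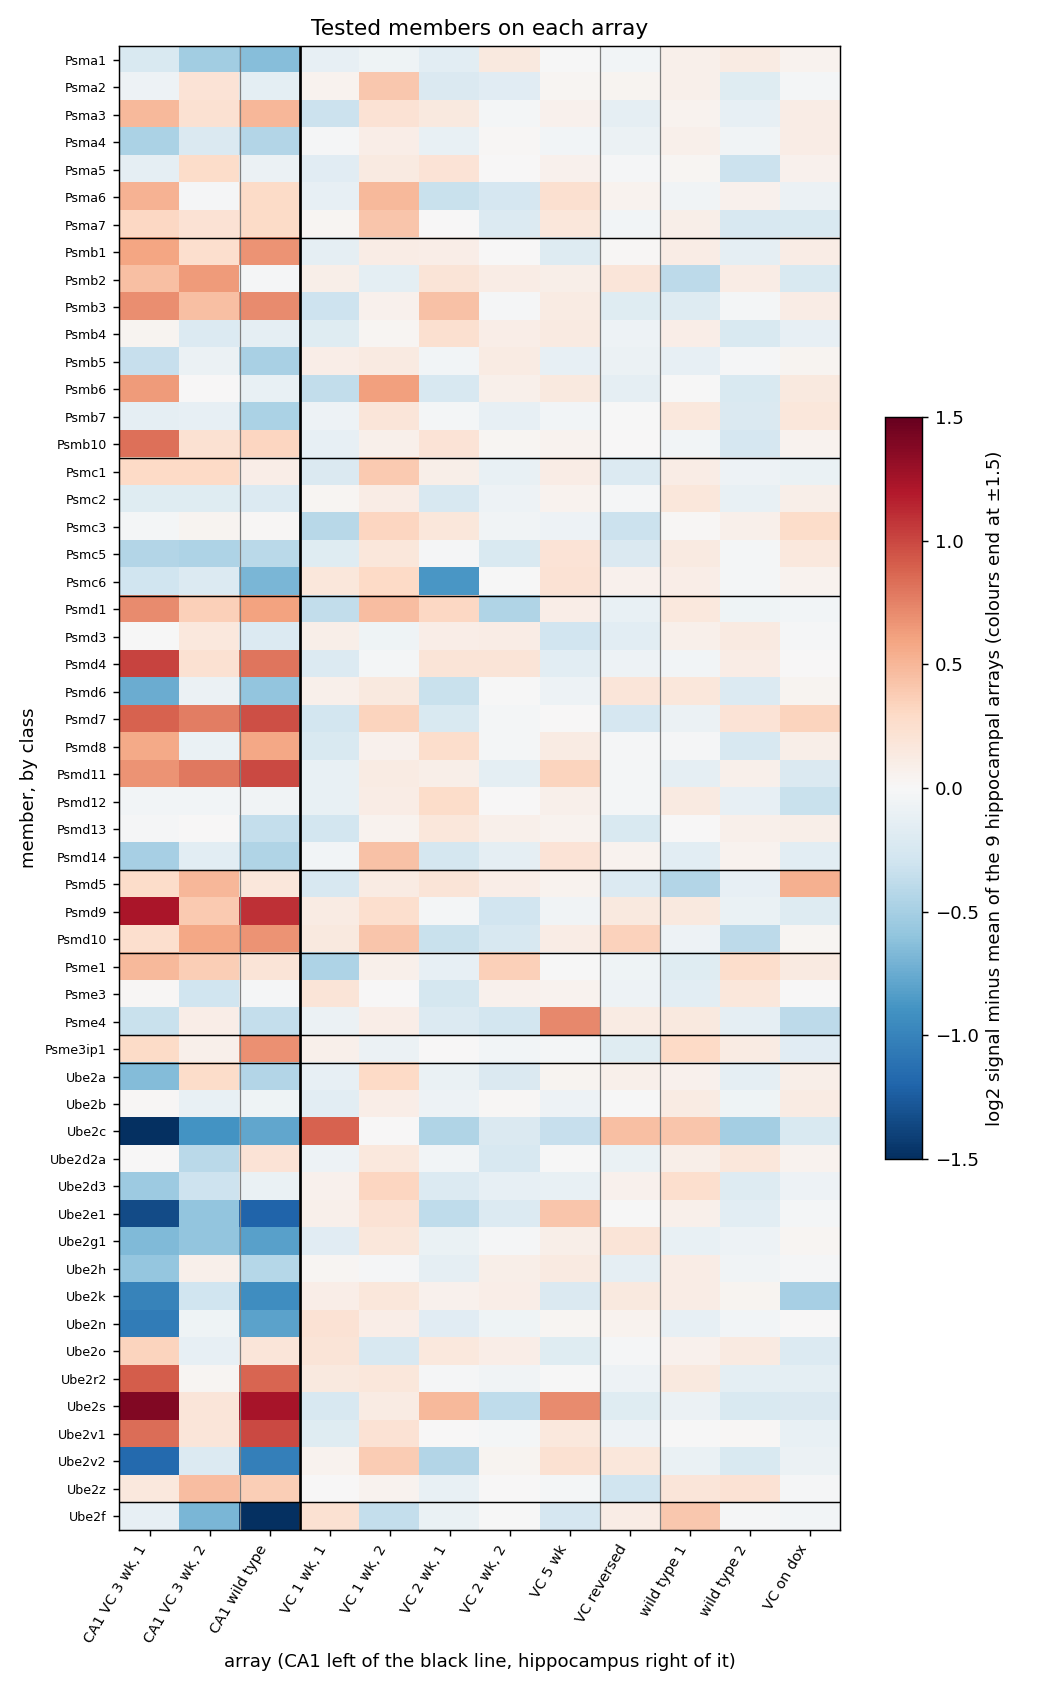
Log2 signal of the 54 tested genes (down the page, by class) on the 12 arrays (across), as the difference from the mean of the 9 hippocampal arrays; red is above that mean and blue below it. The induced, reversed and never-induced hippocampal columns are pale, with no block of genes that separates them, while CA1 columns hold most of the strong colours and VC CA1 array 2 is paler than the other CA1 arrays.

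With the transgene on, none of the 54 tested proteasome and conjugating-enzyme genes passed in hippocampus, in either direction. Psmb8 and Psmb9, which the naming rule left out, are given further below. None of 54 genes passed in the 5 induced against the 3 never-induced arrays (limma, Benjamini-Hochberg over all tested probe sets, threshold 0.05), where 0.0283% of all tested probe sets were called. At an unadjusted p under 0.05 the count was also 0, against 3.15% of all probe sets. The differences ran from -0.21 for Ube2f to 0.32 for Ube2s, with a median of 0.04 (31 positive, 23 negative), against -0.02 over all probe sets. All 54 95% intervals stayed within a 2-fold change in either direction, and 45 within a 1.5-fold change. For no gene did the 5 induced arrays all lie above or all below the 3 never-induced ones, a separation seen for 3.37% of all probe sets.

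Within the 20S core, the alpha genes had a median difference of 0.03 (4 of 7 positive) and the beta genes 0.09 (6 of 8 positive). Psmb2, a non-catalytic beta subunit, had the smallest p of all 54. It read 12.12 and 11.88 (1 week), 12.23 and 12.14 (2 weeks) and 12.11 (5 weeks), against 11.64 and 12.14 in wild type and 11.80 in VC on dox. Wild-type array 1 was the lowest and wild-type array 2 lay within the induced values, and the difference did not pass (0.24 ± 0.14 SE, adjusted p = 0.999). With CA1 added and region as a term (7 induced, 4 uninduced arrays), Psmb2 still did not pass (0.32 ± 0.13 SE, adjusted p = 0.609), and 0 of 54 did, against 0.0283% of all probe sets; 1 of 54 had an unadjusted p under 0.05, against 6.88%. Psma7, an alpha subunit, was next in hippocampus (0.21, interval -0.13 to 0.55).

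In the 19S particle the 5 ATPases had a median of -0.08 (1 positive) and the 10 non-ATPase subunits -0.02 (4 positive). Psmd12, a lid subunit, read on average 10.47 ± 0.14 (SD, n = 5) in induced and 10.29 ± 0.24 (SD, n = 3) in never-induced hippocampus (0.18 ± 0.14 SE, adjusted p = 0.999). Psmd7, the partner of the deubiquitinase Psmd14 in the lid, went the other way, with 11.59 ± 0.24 (SD, n = 5) in induced and 11.77 ± 0.22 (SD, n = 3) in never-induced hippocampus (-0.18 ± 0.16 SE, adjusted p = 0.999). Neither difference passed, and both were smaller than the larger of the SDs within the groups. The 3 assembly chaperones Psmd5, Psmd9 and Psmd10, which hold parts of the 19S base during assembly and leave the finished particle, had differences of 0.06, 0.05 and 0.17, and none passed.

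Of the activators that can cap the core in place of the 19S particle, Psme1, the interferon-induced PA28 alpha subunit, read 9.89 and 10.43 (1 week), 10.23 and 10.71 (2 weeks) and 10.35 (5 weeks), against 10.17 and 10.62 in wild type and 10.48 in VC on dox. The groups overlapped, with the lowest and the highest of the 8 values both among the induced arrays (-0.10 ± 0.18 SE, adjusted p = 0.999). Psme3, which encodes PA28 gamma of the nucleus, read 11.50 and 11.31 (1 week), 11.04 and 11.37 (2 weeks) and 11.35 (5 weeks), against 11.15 and 11.47 in wild type and 11.30 in VC on dox (0.01 ± 0.14 SE, adjusted p = 0.999), and again the groups overlapped. The 16 ubiquitin E2 enzymes had a median of 0.05 (11 positive). Ube2c, an E2 of the anaphase-promoting complex in dividing cells, read 10.12 and 9.25 (1 week), 8.80 and 9.02 (2 weeks) and 8.90 (5 weeks), against 9.66 and 8.73 in wild type and 9.01 in VC on dox. Its highest value came from 1-week array 1, and its interval was the widest of the 54 (-0.62 to 0.80). Ube2z had the largest negative difference relative to its error (-0.14 ± 0.12 SE, adjusted p = 0.999), and it read 10.65 and 10.70 (1 week), 10.54 and 10.66 (2 weeks) and 10.63 (5 weeks), against 10.83 and 10.86 in wild type and 10.63 in VC on dox.

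**Figure D2:**
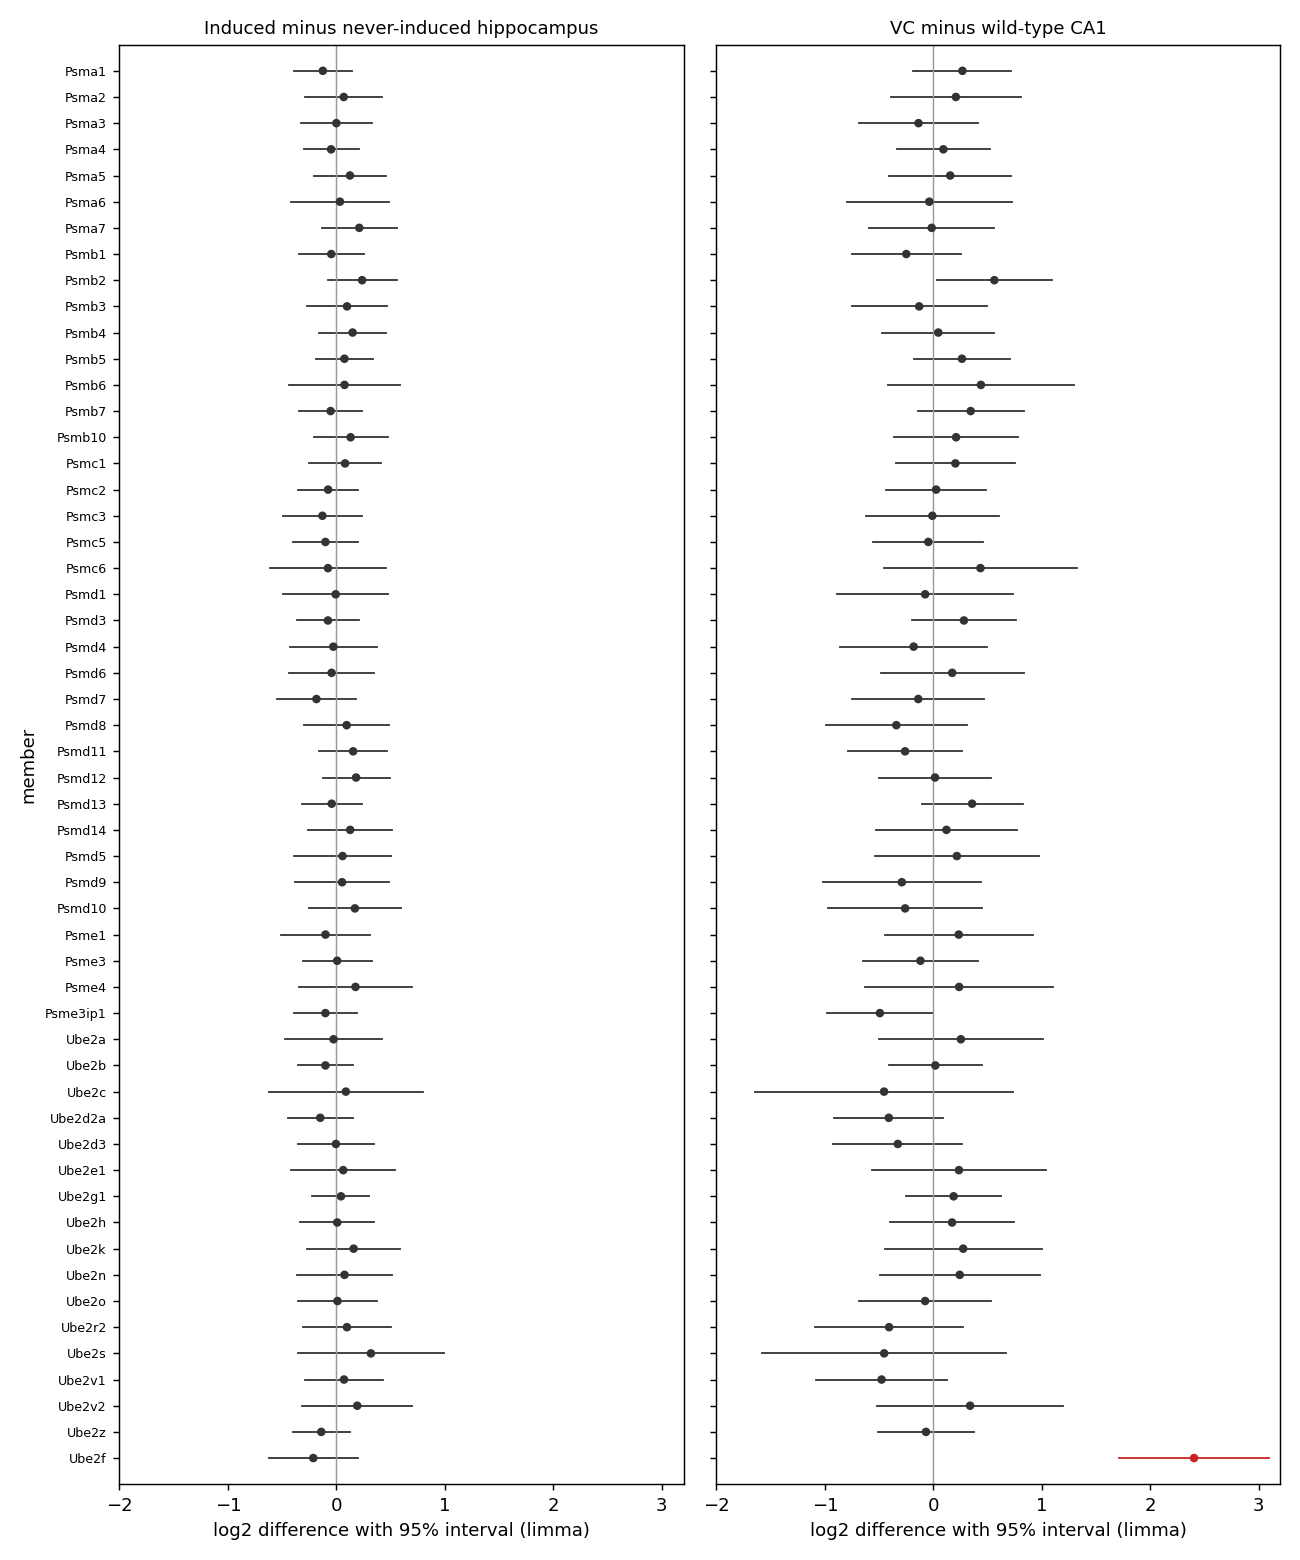
Log2 difference (horizontal axis) with its 95% interval from limma for each of 54 genes (down the page), induced minus never-induced hippocampus in the left panel and VC minus wild-type CA1 in the right panel; red marks a gene that passed the test. All left-hand intervals reach 0 and stay between -1 and 1, and on the right only Ube2f, at 2.40, is marked; its direction was the same on the values as deposited, where it did not pass.

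The immunoproteasome subunits Psmb8 and Psmb9 replace Psmb5 and Psmb6 in the barrel, and Psmb10 replaces Psmb7, so each pair was set side by side. Psmb5, the chymotrypsin-like site, read 12.07 and 12.11 (1 week), 11.93 and 12.10 (2 weeks) and 11.86 (5 weeks), against 11.85 and 11.96 in wild type and 12.01 in VC on dox. Psmb8 read 8.31 and 8.66 (1 week), 8.83 and 8.75 (2 weeks) and 9.90 (5 weeks), against 8.51 and 8.33 in wild type and 7.92 in VC on dox. The 5-week array was the highest of the 8 for Psmb8 and among the lowest for Psmb5. Psmb6, the caspase-like site, read 11.06 and 12.05 (1 week), 11.20 and 11.52 (2 weeks) and 11.58 (5 weeks), against 11.43 and 11.20 in wild type and 11.58 in VC on dox, and Psmb9 read 6.03 and 6.03 (1 week), 7.13 and 6.59 (2 weeks) and 8.69 (5 weeks), against 6.03 and 6.09 in wild type and 6.03 in VC on dox. Psmb9 was at the floor at 1 week and left it at 2 weeks, whereas the spread of Psmb6 came mostly from the 1-week arrays. Psmb7, the trypsin-like site, read 11.86 and 12.12 (1 week), 11.91 and 11.81 (2 weeks) and 11.89 (5 weeks), against 12.09 and 11.73 in wild type and 12.11 in VC on dox. Psmb10 read 11.02 and 11.21 (1 week), 11.34 and 11.17 (2 weeks) and 11.19 (5 weeks), against 11.10 and 10.88 in wild type and 11.19 in VC on dox, and for both genes the groups overlapped.

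Against never-induced hippocampus Psmb8 rose 3.13-fold at 5 weeks (1.65 ± 0.30 SE, adjusted p = 0.0433) and Psmb9 at least 6.25-fold (2.64 ± 0.38 SE, adjusted p = 0.0149), with 1 array at that time. At the same time the differences were -0.08 ± 0.19 SE, adjusted p = 0.997 for Psmb5, 0.17 ± 0.39 SE, adjusted p = 0.997 for Psmb6, -0.08 ± 0.22 SE, adjusted p = 0.997 for Psmb7 and 0.13 ± 0.26 SE, adjusted p = 0.997 for Psmb10, and none of these passed. Psmb10 is an interferon-inducible gene that did not pass here with the other immunosubunits, with an interval of -0.46 to 0.73. The log2 ratio of replacing over replaced subunit was compared over the 5 induced and 3 never-induced arrays. A two-sided exact permutation test over 56 regroupings was used, with 0.0357 as its smallest possible p. That test pooled the 5-week array with the 1-week and 2-week arrays, so it cannot decide on a change at 5 weeks alone. Psmb9 was at the floor on 4 of these 8 arrays, where its ratio follows Psmb6 alone, so the size of that ratio's difference is not exact. In this exact test Psmb8 over Psmb5 differed by 0.56 (p = 0.304), Psmb9 over Psmb6 by 0.77 (p = 0.321) and Psmb10 over Psmb7 by 0.18 (p = 0.107; adjusted over the 3 pairs, p = 0.321 for each). In reversed hippocampus Psmb8 read 9.0, Psmb9 6.15, Psmb5 11.88, Psmb6 11.30, Psmb7 11.93 and Psmb10 11.15. In CA1, Psmb8 read 10.25 and 9.73 in VC CA1 and 8.87 in wild-type CA1, and Psmb9 7.39 and 8.49 in VC CA1 and 6.22 in wild-type CA1; neither passed (adjusted p = 0.514 and 0.557). The microglial marker sum was also highest at 5 weeks among the hippocampal arrays, and its part was not tested.

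**Figure D3:**
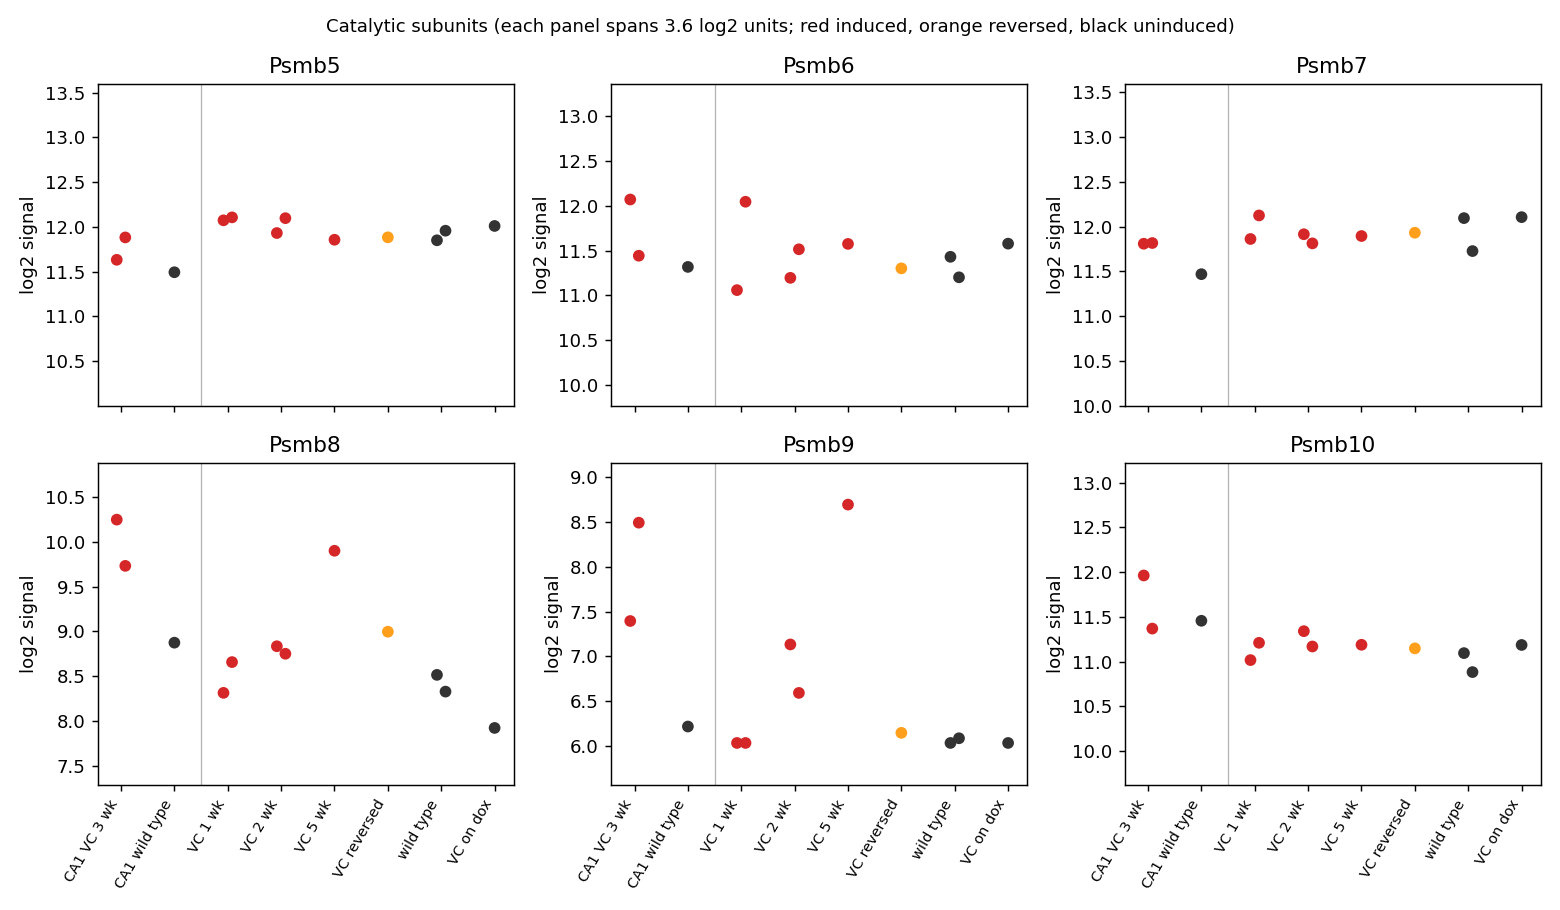
Log2 signal (vertical axis) of the constitutive catalytic subunits Psmb5, Psmb6 and Psmb7 (upper panels) and the subunits that replace them, Psmb8, Psmb9 and Psmb10 (lower panels), with 1 point per array; red is induced, orange reversed and black uninduced. At 5 weeks Psmb8 (9.90) and Psmb9 (8.69) stand above every never-induced hippocampal array, while Psmb5, Psmb6, Psmb7 and Psmb10 lie within or close to the never-induced range.

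Single times were then compared with the same 3 never-induced arrays. After 1 week 0 of 54 genes passed, against 0.0283% of all probe sets, and 1 had an unadjusted p under 0.05 (5.01% of all). That gene was Psmd10, also called gankyrin, which read 8.15 and 8.42 at 1 week, against 7.92 and 7.60 in wild type and 8.02 in VC on dox (0.43 ± 0.19 SE, adjusted p = 0.969). Both 1-week values lay above all never-induced ones, as happened on one side or the other for 25.6% of all probe sets. After 2 weeks 0 of 54 passed (0.156% of all), and none had an unadjusted p under 0.05 (4.46%). Psmc6, a 19S ATPase, had the smallest p (-0.48 ± 0.24 SE, adjusted p = 1): it read 11.70 and 12.57 at 2 weeks, against 12.68 and 12.54 in wild type and 12.63 in VC on dox, so that only 2-week array 1 was low. Psmc2, another ATPase, read 11.93 and 12.09 at 2 weeks, against 12.34 and 12.06 in wild type and 12.26 in VC on dox (-0.21 ± 0.15 SE, adjusted p = 1). Among the beta subunits Psmb2 had a difference of 0.32 at 2 weeks and Psmb4 0.26, and neither passed.

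After 5 weeks 0 of 54 passed (0.990% of all probe sets), and 1 had an unadjusted p under 0.05 (7.30%). It was Psme4, which encodes PA200, a single-chain activator of the core known from work on histone degradation. Psme4 read 9.37 and 9.57 (1 week), 9.27 and 9.19 (2 weeks) and 10.19 (5 weeks), against 9.61 and 9.34 in wild type and 9.08 in VC on dox. The 5-week array was the highest of the 12, and the earlier induced arrays lay within the never-induced range (0.85 ± 0.26 SE, adjusted p = 0.36, interval 0.25 to 1.44). Against 1 week the Psme4 difference at 5 weeks was 0.72 ± 0.28 SE, adjusted p = 0.659; 0 of 54 genes passed there (0.637% of all) and 1 had an unadjusted p under 0.05 (6.85%). Ube2s, the E2 that extends chains on targets of the anaphase-promoting complex, read 9.95 and 10.32 (1 week), 10.68 and 9.81 (2 weeks) and 10.90 (5 weeks), against 10.10 and 9.96 in wild type and 9.98 in VC on dox (0.89 ± 0.46 SE, adjusted p = 0.797). Its induced arrays spread on both sides of the never-induced values. Psmd11, a lid subunit, differed by 0.43 at 5 weeks and Psmd3, another lid subunit, by -0.36, and neither passed (adjusted p = 0.757 and 0.774). With 1 array, 8 of the 54 intervals at 5 weeks stayed within a 1.5-fold change and 47 within a 2-fold change.

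In the reversed sample 0 of 54 genes passed against induced hippocampus and 0 against never-induced hippocampus, as for 0.00% of all probe sets in both (limma; unadjusted p under 0.05 for 0 of 54 against 2.57% of all, and for 1 of 54 against 2.55%). The 1 was Ube2z, an E2 that can take ubiquitin from Uba6, at 10.35 in the reversed sample, against 10.83 and 10.86 in wild type and 10.63 in VC on dox (-0.42 ± 0.19 SE, adjusted p = 1). The reversed array was the lowest of all 12 for Ube2z. VC mice on dox, compared with wild type, had 0 of 54 genes called (0.00% of all) and 1 at an unadjusted p under 0.05 (1.41%). It was Psmd5, at 10.89 in VC on dox, against 9.92 and 10.24 in wild type (0.81 ± 0.26 SE, adjusted p = 1). These comparisons share arrays with each other, and each has 1 array in the group named first.

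Promoters were searched for motifs bound by CREB and by factors of interferon and stress responses, as a description of sequence. RefSeq promoters (GRCm38.p6, 250 bases before to 50 after a start) were found for 50 of the 61 genes. On either strand, the full CRE that CREB binds, TGACGTCA, was present in 2 of 50 genes (4%), against 2.03% of 27025 genes, and its core TGACG, which is part of it, in 22 (44%) against 23% of all genes. The core of the interferon-stimulated response element, GAAA repeated after 2 further bases, was present in 4 (8%, against 3.99%): Psmb3, Psmd4, Psmd9 and Psme1. The GAS site TTCNNNGAA was present in 3 (6%, against 9.55%), the antioxidant response element TGACNNNGC in 8 (16%, against 14%) and the CCAAT box in 19 (38%, against 41.1%). The 2 promoters with a full CRE and that of the PA28 gene Psme1 are shown, 5′ to 3′ on the strand of the gene, with the match in capitals. That of Ube2b (chr11:52000737-52001036, minus strand) has a match that begins 1 base before the start and runs into the transcript. That of Ube2h (chr6:30304490-30304789, minus strand) has a match that begins 24 bases before the start. In that of Psme1 (chr14:55578244-55578543, plus strand) the element lies on the opposite strand, from base 10 of the transcript.
Ube2b: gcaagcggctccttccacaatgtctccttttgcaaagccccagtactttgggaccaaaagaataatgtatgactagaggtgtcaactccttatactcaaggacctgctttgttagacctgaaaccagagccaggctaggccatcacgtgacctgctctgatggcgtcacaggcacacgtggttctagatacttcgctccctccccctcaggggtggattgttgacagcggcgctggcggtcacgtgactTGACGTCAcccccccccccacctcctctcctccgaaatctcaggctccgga
Ube2h: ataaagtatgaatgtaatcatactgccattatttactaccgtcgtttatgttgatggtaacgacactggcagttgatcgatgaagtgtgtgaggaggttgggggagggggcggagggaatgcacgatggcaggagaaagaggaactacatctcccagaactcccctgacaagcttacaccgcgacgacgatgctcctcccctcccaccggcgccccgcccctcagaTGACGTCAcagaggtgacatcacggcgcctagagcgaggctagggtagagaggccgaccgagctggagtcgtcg
Psme1: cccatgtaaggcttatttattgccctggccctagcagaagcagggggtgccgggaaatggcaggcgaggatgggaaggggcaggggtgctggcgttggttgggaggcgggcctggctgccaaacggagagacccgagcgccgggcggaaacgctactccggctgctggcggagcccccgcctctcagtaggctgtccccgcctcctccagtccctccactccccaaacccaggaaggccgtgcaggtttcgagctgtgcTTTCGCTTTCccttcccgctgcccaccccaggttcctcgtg

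The genes with a full CRE did not pass the test with the CREB transgene on. Each of them also has a RefSeq promoter without a full CRE, and which start the signal came from was not tested. Ube2b, the mouse counterpart of yeast Rad6 that marks histone H2B, read 11.93 and 12.18 (1 week), 12.01 and 12.10 (2 weeks) and 12 (5 weeks), against 12.21 and 12.02 in wild type and 12.21 in VC on dox (-0.10 ± 0.12 SE, adjusted p = 0.999). Ube2h, an E2 known from red cell maturation, read 11.01 and 10.97 (1 week), 10.85 and 11.08 (2 weeks) and 11.12 (5 weeks), against 11.09 and 10.93 in wild type and 10.97 in VC on dox (0.01 ± 0.15 SE, adjusted p = 0.999). In both genes the groups overlapped, and the intervals were -0.36 to 0.15 and -0.33 to 0.35. In CA1, VC minus wild type was 0.02 ± 0.19 SE, adjusted p = 0.992 for Ube2b and 0.17 ± 0.26 SE, adjusted p = 0.87 for Ube2h.

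In CA1, 1 of the 54 genes passed between VC and wild type: Ube2f was higher in VC CA1, where 0.467% of all probe sets were called. Ube2f, on chromosome 1, encodes an E2 that carries the ubiquitin-like protein Nedd8 to the cullin Cul5. It read 8.85 and 8.29 in VC CA1 and 6.17 in wild-type CA1 (2.40 ± 0.31 SE, adjusted p = 0.0153). The call rests on the 1 wild-type CA1 array, whose value lay just above the floor of 6.03. VC CA1 array 1 lay within the hippocampal range and array 2 below it. The error comes mostly from the spread of hippocampal arrays, because wild-type CA1 has 1 array. In hippocampus Ube2f read 9.22 and 8.63 (1 week), 8.88 and 8.98 (2 weeks) and 8.73 (5 weeks), 9.09 in the reversed sample, and 9.39 and 8.97 in wild type and 8.95 in VC on dox. VC CA1 minus induced hippocampus was -0.31 (adjusted p = 0.309), and wild-type CA1 minus never-induced hippocampus was -2.93 (adjusted p = 0.000791). The effect in CA1 minus that in hippocampus was 2.62 ± 0.36 SE, adjusted p = 0.0489, 1 of 54 genes against 0.0566% of all probe sets (unadjusted p under 0.05 for 1 of 54 against 5.81%), with an adjusted p between 0.0092 and 0.851 over the other settings. Over the other settings the adjusted p in CA1 was between 0.00533 and 1, and the call was lost under 2 of 22, the values as deposited and the replicate number as a block.

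No other gene of the 54 passed between VC and wild-type CA1. Psmb2 read 12.48 and 12.66 in VC CA1 and 12.01 in wild-type CA1 (0.56 ± 0.24 SE, adjusted p = 0.46), so that both VC arrays were higher, as one side or the other was for 61.0% of all probe sets. Psme3ip1, which encodes a protein that binds PA28 gamma, read 10.78 and 10.57 in VC CA1 and 11.17 in wild-type CA1 (-0.49 ± 0.22 SE, adjusted p = 0.492). Psmd13, a lid subunit, had 0.36 and Ube2v1, a partner of Ube2n, -0.48; both failed the test. The median of the 54 was 0.04, with 30 positive and 24 negative, and 41 intervals stayed within a 2-fold change.

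More of these genes passed between CA1 and whole hippocampus than in any comparison of the transgene. Of 54 genes 24 passed, 13 higher and 11 lower in CA1, where the shares of all probe sets were 35.9% called, 11.4% higher and 24.5% lower. The median was -0.03 for the 54 genes and -0.13 for all probe sets. For 14 genes all 3 CA1 arrays lay outside the range of the 9 hippocampal arrays, 8 above and 6 below, as for 25.0% of all probe sets. The fit averaged VC CA1 minus induced hippocampus and wild-type CA1 minus never-induced hippocampus, and each of the 24 had the same sign in both. The 24 were chosen by that average, which favours the same sign in both from the start. On values as deposited the difference in scale moved the median of all probe sets to -2.28, which turns the sign of any difference of this size. All 13 higher genes stayed above that median. Away from the floor a change of scale moves genes and median alike, so this is no check of the 13.

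Among the 20S core genes, 4 were higher and 3 lower in CA1. In hippocampus values are given as the lowest, median and highest of 9 arrays. Psmb1 read 13.63 and 13.30 in VC CA1 and 13.72 in wild-type CA1, against 12.86, 13.06 and 13.16 in hippocampus (0.54 ± 0.13 SE, adjusted p = 0.0107), and Psmb3 12.71 and 12.45 in VC CA1 and 12.71 in wild-type CA1, against 11.70, 11.99 and 12.44 in hippocampus (0.63 ± 0.16 SE, adjusted p = 0.0144). Both are non-catalytic beta subunits, and for both all 3 CA1 arrays were above hippocampus, array 2 of VC CA1 the closest to it. Psmb10 read 11.96 and 11.37 in VC CA1 and 11.46 in wild-type CA1, against 10.88, 11.17 and 11.34 in hippocampus (0.44 ± 0.15 SE, adjusted p = 0.0423), and VC CA1 array 1 was the highest. Psmb5 went the other way, with 11.63 and 11.88 in VC CA1 and 11.49 in wild-type CA1, against 11.85, 11.96 and 12.11 in hippocampus (-0.35 ± 0.12 SE, adjusted p = 0.0395), and VC CA1 array 2 lay within the hippocampal range. Psmb7 did not pass, at 11.81 and 11.82 in VC CA1 and 11.47 in wild-type CA1, against 11.73, 11.91 and 12.12 in hippocampus (-0.31 ± 0.13 SE, adjusted p = 0.0831), nor did Psmb6, at 12.07 and 11.44 in VC CA1 and 11.32 in wild-type CA1, against 11.06, 11.43 and 12.05 in hippocampus (0.10 ± 0.23 SE, adjusted p = 0.759).

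The alpha ring held calls in both directions. Psma3 read 13.22 and 12.97 in VC CA1 and 13.24 in wild-type CA1, against 12.42, 12.79 and 12.96 in hippocampus (0.41 ± 0.14 SE, adjusted p = 0.0464). Psma1 read 9.86 and 9.57 in VC CA1 and 9.45 in wild-type CA1, against 9.93, 10.08 and 10.23 in hippocampus (-0.53 ± 0.12 SE, adjusted p = 0.00734). Psma4 read 11.19 and 11.45 in VC CA1 and 11.23 in wild-type CA1, against 11.56, 11.65 and 11.77 in hippocampus (-0.41 ± 0.11 SE, adjusted p = 0.0182). Each of the 3 had all CA1 arrays on one side of the hippocampal range, and each encodes a different position of the same ring, of which every core particle holds the same number of copies. The other 4 alpha genes, Psma2, Psma5, Psma6 and Psma7, did not pass, with differences from -0.03 for Psma2 to 0.30 for Psma7.

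Of the 10 non-ATPase 19S subunits 3 were higher in CA1 and none lower. Psmd7 read 12.51 and 12.39 in VC CA1 and 12.59 in wild-type CA1, against 11.35, 11.59 and 11.96 in hippocampus (0.84 ± 0.16 SE, adjusted p = 0.00343). Psmd11 read 11.85 and 11.97 in VC CA1 and 12.17 in wild-type CA1, against 10.96, 11.15 and 11.51 in hippocampus (0.88 ± 0.14 SE, adjusted p = 0.00134), and Psmd4, the ubiquitin receptor also called Rpn10, 12.82 and 12.04 in VC CA1 and 12.61 in wild-type CA1, against 11.60, 11.79 and 12 in hippocampus (0.70 ± 0.18 SE, adjusted p = 0.013). For Psmd7 and Psmd11 the 3 CA1 arrays lay close together, whereas for Psmd4 VC CA1 array 2 was just above the hippocampal range. Psmd11 depends on the probe set: the brightest gave 0.88, the others 0.27 (adjusted p = 0.147) and -0.82 (adjusted p = 0.00595). Psmd6 (-0.49 ± 0.17 SE, adjusted p = 0.0502) and Psmd1, the scaffold of the base (0.56 ± 0.21 SE, adjusted p = 0.0652), did not pass. Psmd14, the deubiquitinase that strips ubiquitin from substrates, did not pass (-0.37 ± 0.17 SE, adjusted p = 0.116).

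Of 5 ATPases 1 differed by its brightest probe set: Psmc5 read 11.25 and 11.22 in VC CA1 and 11.28 in wild-type CA1, against 11.46, 11.67 and 11.89 in hippocampus (-0.47 ± 0.13 SE, adjusted p = 0.0218). Its 3 CA1 values lay close together, all below hippocampus. Psmc3 depends on the probe set: the brightest gave -0.05 (adjusted p = 0.835), the others -0.41 (adjusted p = 0.0212) and 0.40 (adjusted p = 0.246). Of the 3 assembly chaperones 2 were higher in CA1. Psmd9, also called p27, read 11.23 and 10.39 in VC CA1 and 11.10 in wild-type CA1, against 9.72, 9.98 and 10.25 in hippocampus (0.98 ± 0.19 SE, adjusted p = 0.004), with all CA1 arrays above hippocampus. Psmd10 read 8.25 and 8.57 in VC CA1 and 8.67 in wild-type CA1, against 7.60, 8.02 and 8.42 in hippocampus (0.61 ± 0.19 SE, adjusted p = 0.0278), and VC CA1 array 1 lay within the hippocampal range. None of the activators passed: Psme1 read 10.84 and 10.72 in VC CA1 and 10.54 in wild-type CA1, against 9.89, 10.35 and 10.71 in hippocampus (0.29 ± 0.18 SE, adjusted p = 0.226), Psme3 11.32 and 11 in VC CA1 and 11.28 in wild-type CA1, against 11.04, 11.31 and 11.50 in hippocampus (-0.09 ± 0.14 SE, adjusted p = 0.63), and Psme4 had -0.20. Psme3ip1 was higher in CA1, at 10.78 and 10.57 in VC CA1 and 11.17 in wild-type CA1, against 10.31, 10.46 and 10.79 in hippocampus (0.40 ± 0.13 SE, adjusted p = 0.034), with both VC CA1 arrays within the hippocampal range.

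Of 16 ubiquitin E2 enzymes 3 were higher and 6 lower in CA1, and Ube2f, the Nedd8 E2, was lower as well (-1.62 ± 0.18 SE, adjusted p = 0.000288) with the wild-type array farthest below. The catalytic E2 Ube2n and its inactive partners Ube2v1 and Ube2v2 build chains linked through a lysine of ubiquitin that does not serve as the main proteasome signal. Ube2n read 11.09 and 12.08 in VC CA1 and 11.34 in wild-type CA1, against 11.97, 12.15 and 12.35 in hippocampus (-0.66 ± 0.19 SE, adjusted p = 0.0236). Ube2v2 read 8.35 and 9.30 in VC CA1 and 8.48 in wild-type CA1, against 9.07, 9.55 and 9.89 in hippocampus (-0.81 ± 0.22 SE, adjusted p = 0.0188), and Ube2v1 13.07 and 12.41 in VC CA1 and 13.22 in wild-type CA1, against 12.05, 12.22 and 12.45 in hippocampus (0.75 ± 0.16 SE, adjusted p = 0.00538). So Ube2n and Ube2v2 were lower and Ube2v1 was higher in CA1, and for all 3 genes VC CA1 array 2 lay within the hippocampal range. Ube2g1 read 10.91 and 10.97 in VC CA1 and 10.75 in wild-type CA1, against 11.40, 11.55 and 11.76 in hippocampus (-0.69 ± 0.12 SE, adjusted p = 0.00188). Ube2e1 read 9.38 and 10.14 in VC CA1 and 9.52 in wild-type CA1, against 10.35, 10.72 and 11.15 in hippocampus (-1.08 ± 0.21 SE, adjusted p = 0.00387). For Ube2g1 and Ube2e1 all 3 CA1 arrays were below hippocampus.

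The E2 enzymes of the anaphase-promoting complex moved in opposite directions between the regions. Ube2c read 7.67 and 8.35 in VC CA1 and 8.47 in wild-type CA1, against 8.73, 9.02 and 10.12 in hippocampus (-0.94 ± 0.31 SE, adjusted p = 0.039), below hippocampus on all 3 arrays. Ube2s read 11.58 and 10.37 in VC CA1 and 11.43 in wild-type CA1, against 9.81, 10.02 and 10.90 in hippocampus (1.03 ± 0.30 SE, adjusted p = 0.0223), where VC CA1 array 2 lay within the hippocampal range. The sum of 20 markers of proliferating cells was 8643 to 8735 in VC CA1 and 6447 in wild-type CA1, against 8758 to 10457 over the hippocampal arrays. Mki67, the defining one, was at the floor in wild-type CA1, and its part in the Ube2c result was not tested. Ube2k, which builds chains linked through a lysine recognised by the proteasome, read 10.18 and 10.88 in VC CA1 and 10.26 in wild-type CA1, against 10.69, 11.28 and 11.35 in hippocampus (-0.75 ± 0.19 SE, adjusted p = 0.0126). Ube2r2, an E2 of cullin ligases, read 13.05 and 12.18 in VC CA1 and 13.02 in wild-type CA1, against 12, 12.13 and 12.31 in hippocampus (0.67 ± 0.18 SE, adjusted p = 0.0163), and for both genes VC CA1 array 2 sat among the hippocampal values. Ube2h and Ube2z did not pass with their brightest probe sets (-0.35 and 0.29) and were lower in CA1 with a dimmer one (-1.71, adjusted p = 0.00178, and -1.41, adjusted p = 0.0313). Ube2o did not pass with its brightest probe set (0.14) and was higher with a dimmer one (0.52, adjusted p = 0.0299). Of the called genes, Psmb1 (0.25, adjusted p = 0.198), Psmb5 (-0.49, adjusted p = 0.0924) and Ube2k (-0.27, adjusted p = 0.21) kept the sign with a further tested probe set and did not pass with it.

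**Figure D4:**
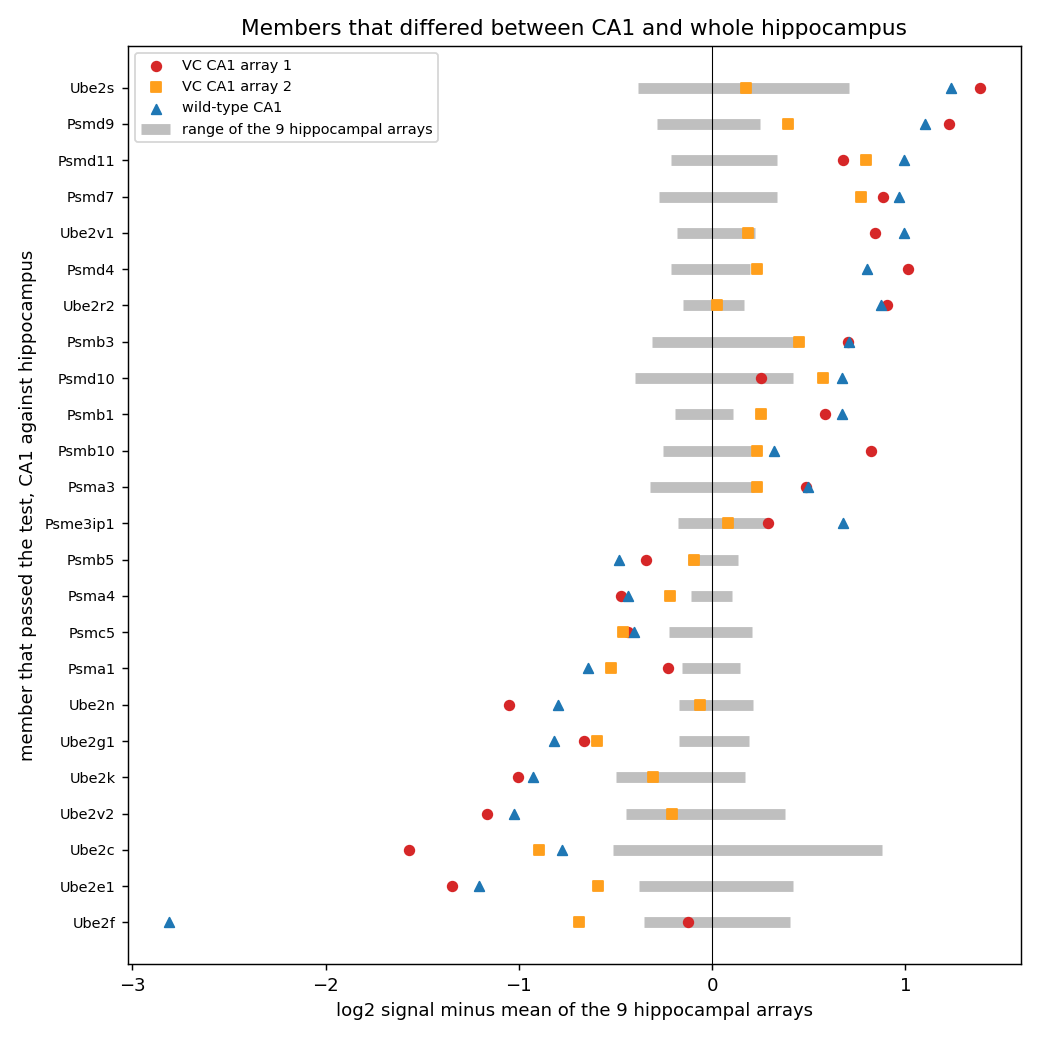
Log2 signal minus the mean of the 9 hippocampal arrays (horizontal axis) for the 24 genes called between CA1 and hippocampus (down the page, by fitted difference); symbols are the 3 CA1 arrays and grey bars the hippocampal range. VC CA1 array 1 and wild-type CA1 lie together for most genes, VC CA1 array 2 is nearer to 0 than wild-type CA1 for 22 of 24, and Ube2f stands apart through wild-type CA1. On values as deposited the difference in scale puts the median of all probe sets at -2.28. There the 13 genes on the right are negative and above that median, which a change of scale alone leaves in place.

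The number of genes called between the regions varied with the CA1 arrays used and with the deposited scale. VC CA1 array 2 was closer to the hippocampal mean than VC CA1 array 1 for 38 of 54 genes (70.4%, against 62.0% of all probe sets) and for 19 of the 24 called. Without VC CA1 array 2, 27 genes passed (42.5% of all probe sets), 23 of the 24 among them. Without VC CA1 array 1, 18 passed (28.4%), with 17 of the 24. Where deposited scale was a block, and wild-type hippocampus array 1 the only link between regions, 1 gene passed (4.07% of all), and the sign of all 24 was kept. That gene was Ube2f (-1.98), whose region difference rests on the wild-type CA1 array, near the floor. Between wild-type CA1 and wild-type hippocampus array 1, both of the lower scale, all 24 genes had the same sign as in the fit, as values without a test. Both arrays were in the fit that chose the 24, so this is no separate check. VC CA1 against induced hippocampus alone called 6 genes (19.5%), and wild-type CA1 against never-induced hippocampus alone called 6 (11.7%). The summed signal of 10 endothelial markers was higher in CA1, at 8616 to 11555 in VC CA1 and 11149 in wild-type CA1, against 5876 to 7412 in hippocampus, and its part was not tested.

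Genes around the proteasome were read from the same fits. Of 5 tested genes of ubiquitin and its E1 enzymes, 36 E3 genes, 19 deubiquitinases and 22 assembly, shuttle and segregase genes, none passed in induced against never-induced hippocampus, at 5 weeks or between VC and wild-type CA1. Nfe2l2, a transcription factor that acts on proteasome genes under stress, had 0.89 at 5 weeks (adjusted p = 0.257) and 1.08 in VC against wild-type CA1 (adjusted p = 0.252). At 5 weeks, a time with 1 array, 0.990% of all probe sets were called. Of 11 immunoproteasome and class I genes 5 rose there: H2-D1 (2.13), H2-K1 (1.98), B2m (2.21), Psmb8 and Psmb9. On the same array 9 of 13 tested microglial markers rose (median 1.68), and 11 astrocyte markers had a median of 0.53 with 1 called; their part was not tested. Of 18 genes of ubiquitin-like pathways 1 rose on that array, Isg15 (3.18, adjusted p = 0.0218), a ubiquitin-like protein induced by interferon. Its conjugating enzyme Ube2l6 was among the 7 genes too dim to test.

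Ube2l6 read 7.73 and 8.23 in VC CA1 and 6.99 in wild-type CA1, and in hippocampus it left the floor of 6.03 on 1 array, at 7.47 at 2 weeks. All 3 CA1 values were above the floor, and both VC values were above the wild-type one. Of the other 6 untested genes, Psmc3ip was at the floor on all 12 arrays. Psmc4 read 7.85 and 7.42 in VC CA1 and 7.67 in wild-type CA1, against 6.69, 7.33 and 7.89 in hippocampus, and Psmd2 6.03 and 6.84 in VC CA1 and 6.22 in wild-type CA1, against 6.03, 7.02 and 8.01. The hippocampal ranges of both genes held every CA1 value. Ube2e3 read 7.96 and 8.35 in VC CA1 and 8.05 in wild-type CA1, against 7.94, 8.47 and 8.83 in hippocampus, Ube2t 6.99 and 6.03 in VC CA1 and 6.03 in wild-type CA1, against 6.03, 6.57 and 7.02 in hippocampus and Ube2w, which marks protein amino termini, 7.60 and 6.95 in VC CA1 and 6.14 in wild-type CA1, against 7.63, 7.92 and 8.43 in hippocampus. For Ube2w all 3 CA1 arrays were below hippocampus, and no test was made.

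Between CA1 and hippocampus the neighbouring genes also split. Of 5 ubiquitin and E1 genes 1 was lower: Uba3, the catalytic subunit of the Nedd8 E1 that charges Ube2f (-0.86 ± 0.18 SE, adjusted p = 0.00498). Of the 22 assembly, shuttle and segregase genes 2 were higher and 6 lower. The lower ones included Pomp, which matures the 20S core (-1.30, adjusted p = 0.00164), Psmg3, a chaperone of the alpha ring (-0.76, adjusted p = 0.00303), and the shuttle receptors Ubqln1 (-0.90) and Ubqln2 (-0.99). Sqstm1, the autophagy receptor p62, was higher (0.56, adjusted p = 0.00728). Of 36 E3 genes 4 were higher and 3 lower, with Siah1b the lowest (-1.62, adjusted p = 7.17e-05). Of 19 deubiquitinases 3 were higher and 2 lower; Uchl5, which works on the 19S particle, was lower (-0.56, adjusted p = 0.00881). Of 11 immunoproteasome and class I genes 2 were higher and 2 lower. The higher ones were Psmb10 and Psmb8 (0.86 ± 0.31 SE, adjusted p = 0.05, at the threshold), and the lower ones Canx (-0.99) and Tapbp (-0.62). Psmb9 did not pass (0.61 ± 0.53 SE, adjusted p = 0.382). Of 18 genes of ubiquitin-like pathways 1 was higher and 1 lower. These counts stand against 35.9% of all probe sets called.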

How the data were processed

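RNA of 12 pooled mouse samples was hybridised to Affymetrix MG-U74Av2 arrays. Per the submitters' processing notes the deposited intensity of each probe set came from GCOS, version and algorithm not stated; the values were deposited on scales near 500 (4 arrays) and near 3000 (8). Arrays were scaled to a common 2% trimmed mean (1000), floored at the 20th percentile (65.47) and put on log2. Control probe sets (66) were left out, and 7069 probe sets above their array's median on at least 2 arrays were tested with limma 3.58.1 in R 4.3.3, with Benjamini-Hochberg adjustment over all of them and a threshold of 0.05. Levels of the 5 conditions, or of the single times, were fitted together, the reversed array at its own level. The region fit with additive terms used 11 arrays. In the fit of 5 conditions the induced times shared 1 level, and wild-type hippocampus shared 1 with VC on dox. The spread in that fit therefore also holds differences between those samples. Groups of 1 array add nothing to the spread, and most of it comes from hippocampal arrays. The fits were tested on simulated data. The genes and lists were chosen with earlier results of these data known, and the lists around the proteasome and the cell type markers are textbook genes. The rule for named genes took every called gene, in each comparison the 3 positive and 3 negative ones with the smallest p, the 2 brightest and the dimmest of each prefix family, and, by role, the catalytic subunits, the Psme activators, Ube2l6 and Ube2c; others were named after their values were seen. Gene names come from the platform annotation, and promoters from RefSeq GRCm38.p6. Deviations of samples of the same number had correlations from -0.23 to 0.20 between groups. With 2 arrays in each such group this cannot show whether the numbers pair samples, and the main fits used no pairing. Other scalings, floors, filters, offsets, probe set rules, blocks and leaving out each array were tried. The number of arrays limits the precision, most of all where a group has 1.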

Additional observations from a re-analysis of the deposited data

Results flagged for a closer look

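Among the 54 tested genes, 1 array stood apart from the other 4 induced hippocampal arrays for 3 genes, where the gap to the nearest value was over 0.71 of the range of the 5; chance gives about 1 such gene in 20. Psmc6 read 11.7 on VC 2-week array 1, against 12.57 to 12.88 on the other induced arrays. Psmd13 read 10.54 on VC 1-week array 1, against 10.87 to 10.99. Ube2k read 10.96 on the 5-week array, against 11.25 to 11.35. The 3 values lie on 3 different arrays, all on the low side.

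The effect of the transgene on Ube2f differed between CA1 and hippocampus by 2.62 on the log2 scale (limma, adjusted p = 0.0489), and it rests on the 1 wild-type CA1 array, at 6.17.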

How the results depend on the processing

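The count of 0 of 54 genes in induced against never-induced hippocampus, at each time, in the reversed sample and in VC on dox was the same under every setting run. Between VC and wild-type CA1 the count of 1 fell to 0 on values as deposited and with the replicate number as a block, where Ube2f had 2.19 (adjusted p = 0.135), and 2.43 in the difference of effects (adjusted p = 0.249). The difference of effects gave 0 on values as deposited, with an offset of 50, the mean of probe sets, trended and robust variances, the scale block and the replicate block, and 0 to 1 without 1 array. Between CA1 and hippocampus 52 genes passed as deposited and 1 with the scale block; VC alone and wild type alone, chosen after seeing the data, gave 6 and 6, leaving out an array gave 18 to 27, and the replicate block gave 19.

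The directions that turned were mostly those of values as deposited, a difference in scale that moves all genes alike: the median of all probe sets moved to 0.85 in induced against never-induced hippocampus and to -2.28 between the regions. Deposited values were 0.72, 0.65 and 0.68 for Ube2z, Ube2f and Psmd7 (induced); 0.69, 0.60 and 0.68 for Psmd13, Psme1 and Psma1 (1 week); 0.38, 0.65 and 0.62 for Psmc6, Psmc2 and Ube2d2a (2 weeks); 0.50, 0.49 and 0.64 for Psmd3, Ube2f and Psmb1 (5 weeks). They were 0.44, 0.42 and 0.46 for Ube2z, Psmc3 and Psmd7 (reversed against never-induced), 0.72, 0.91 and 0.90 for Ube2k, Psme3ip1 and Psme4 (VC on dox), -0.47 and -0.46 for Psma1 and Psmd13 (difference of effects), and 0.42, 0.43 and 0.46 for Ube2d2a, Psme3ip1 and Psmd7 (region as a term). Between the regions they were -1.71 for Psmb10, -1.55 for Psmd10, -1.31 for Psmd7, -1.40 for Ube2v1, -1.61 for Psmb1, -1.74 for Psma3, -1.52 for Psmb3, -1.13 for Ube2s, -1.46 for Psmd4, -1.27 for Psmd11, -1.76 for Psme3ip1, -1.48 for Ube2r2 and -1.18 for Psmd9. With the mean of probe sets Psmd11 had -0.028 (5 weeks), -0.10 (5 weeks against 1 week) and 0.10 (difference of effects). Without 1 array, Psme1 at 1 week had -0.53 to 0.0056, and Ube2f with region as a term had -0.21 without wild-type CA1. Over all settings, 1914 values of named genes kept direction and side of the threshold, 126 kept the direction and lost the call, and 41 turned. For the turned directions and lost calls outside the values as deposited, the cause was not tested. The replicate block could not be fitted for VC on dox, nor the higher scale alone for CA1.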
